A study of Mus musculus with 2 samples.

Results

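The 8 genes described here are regulators and products of tendon progenitors and of the connective tissue that wraps muscle: Scx, Mkx, Tnmd, Egr1, Egr2, Tcf4, Tcf7l2 and Dpt. They were chosen by symbol, as rows of the deposited tables that carry these names, out of 22072 gene symbols, and all 8 had rows. RNA of mouse embryonic tongue at embryonic day 12, on a mixed background, was sequenced in 1 control and 1 mutant library. The control carried 1 conditional allele of Osr1 (Osr1f/+), which encodes an odd-skipped zinc finger factor. The mutant (Osr1f/-; Wnt1cre) had 1 conditional and 1 null allele, and Wnt1cre, a recombinase driven in the neural crest lineage. Tongues were pooled before RNA extraction, the label of the control names neither the null allele nor Wnt1cre, and mutant muscle and other cells outside the neural crest carry the null allele beside an intact conditional one. With no replicate library, each ratio compares 2 libraries, the genotypes could not be tested against each other, and the spread between embryos is unknown.

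Tendons and the sheaths of muscle arise, in the head, from neural crest mesenchyme. Scleraxis, the bHLH factor encoded by Scx, marks the progenitors of tendon and pairs with E proteins to bind E-box motifs, and the homeobox factor Mohawk (Mkx) and the zinc finger factors Egr1 and Egr2 act on tendon collagen genes in later tendon cells. Tenomodulin (Tnmd) is a membrane protein of differentiating tendon. Muscle connective tissue is marked by the WNT effector Tcf7l2, whose protein is often called TCF4, a name that belongs by symbol to another gene, the E protein gene Tcf4 (E2-2). Dermatopontin (Dpt) is a small matrix protein that binds decorin and collagen.

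Osr1 itself had 56.8 FPKM (fragments scaled by transcript length and by mapped fragments) in control and only 18.4 FPKM in mutant RNA, so the libraries went with their labels. About 18900000 and 23100000 mapped reads lay behind the 2 libraries, as estimated from the deposited coverage. Myog, a muscle factor with 80.8 and 84.9 FPKM, and the epithelial keratin gene Krt15, with 35.3 and 30.1 FPKM, were present in both libraries. Intervals below are 95% counting intervals from approximate reads, and since amplified reads are not independent molecules they cover counting error only. A level in bulk RNA can differ because there are fewer cells of a type or because each cell holds less of the RNA, and these cannot be told apart here.

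Scx and Mkx were higher in the mutant library, Dpt was lower, Egr1 was slightly higher, and Tcf4 and Tcf7l2 were nearly level. Tnmd and Egr2 were close to the limit of detection in both libraries. The members ranged in level from 59.2 FPKM for Tcf4 to 0.0751 FPKM for Egr2 in the control. In the control library the order was Tcf4, Tcf7l2, Scx, Egr1, Mkx, Dpt, Tnmd and Egr2. Neighbours whose counting intervals overlapped there were Tcf7l2 and Scx, Mkx and Dpt, and Tnmd and Egr2. In the mutant library Scx stood above Tcf7l2, with intervals that did not overlap, while Egr1 and Mkx, Dpt and Tnmd, and Tnmd and Egr2 overlapped.

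**Figure D1:**
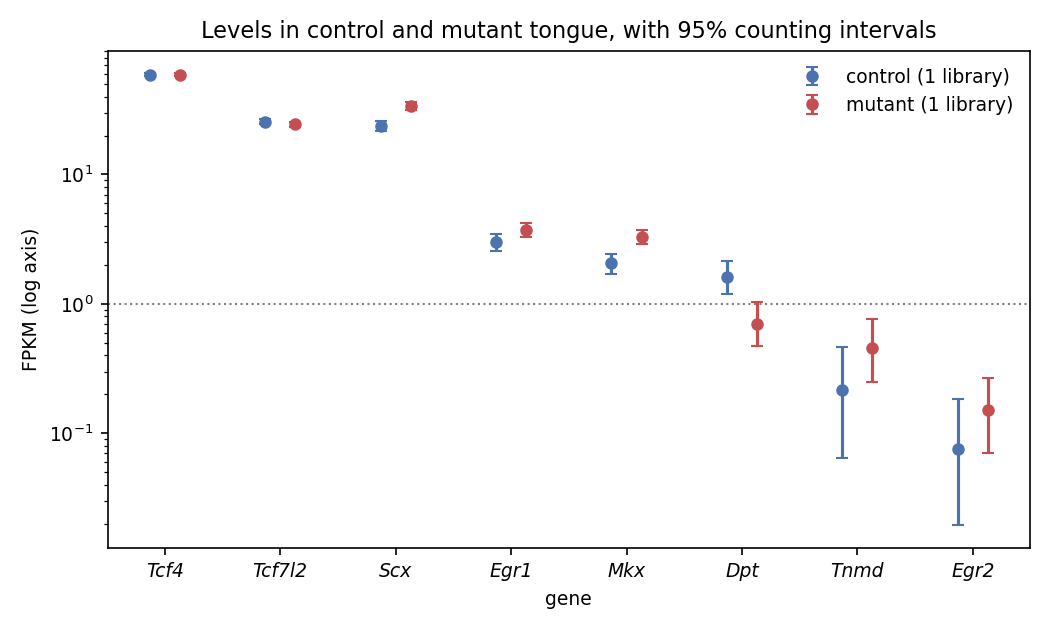
FPKM of the 8 genes (log axis) in the control and the mutant library, 1 library each, where points are the deposited values and bars are 95% counting intervals. The dotted line is 1 FPKM. Scx goes from 23.8 to 33.7 and Dpt from 1.61 to 0.702, while the points of Tcf4 lie at the same height.

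A gene was measured if it reached 1 FPKM in either library and all its rows had the status OK, which 12383 genes and 6 of the 8 members did. Tnmd and Egr2 did not. On the scale of FPKM plus 1, 2 of the 6 measured members, Scx and Mkx, were at least 1.2-fold higher in the mutant library, against 4.77% of all measured genes. One member, Dpt, was at least 1.2-fold lower, against 3.46%. Among measured genes with a mean of 1 to 5 FPKM, where Mkx, Egr1 and Dpt lie, these shares were 9.66% and 6.97%, and among genes of at least 5 FPKM, where Scx lies, 2.44% and 1.69%. At 1.5-fold on the same scale, no member was higher and Dpt was lower, against 0.896% and 0.581% of measured genes. These shares were 1.69% and 1.22% at 1 to 5 FPKM and 0.341% and 0.182% at 5 FPKM or more. The counting interval of the ratio lay above 1 for Scx, Mkx and Egr1 and below 1 for Dpt, as it did for 10.7% and 10.2% of measured genes. At 1 to 5 FPKM the shares were 9.96% and 7.35%, and at 5 FPKM or more 10.8% and 11.2%.

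**Figure D2:**
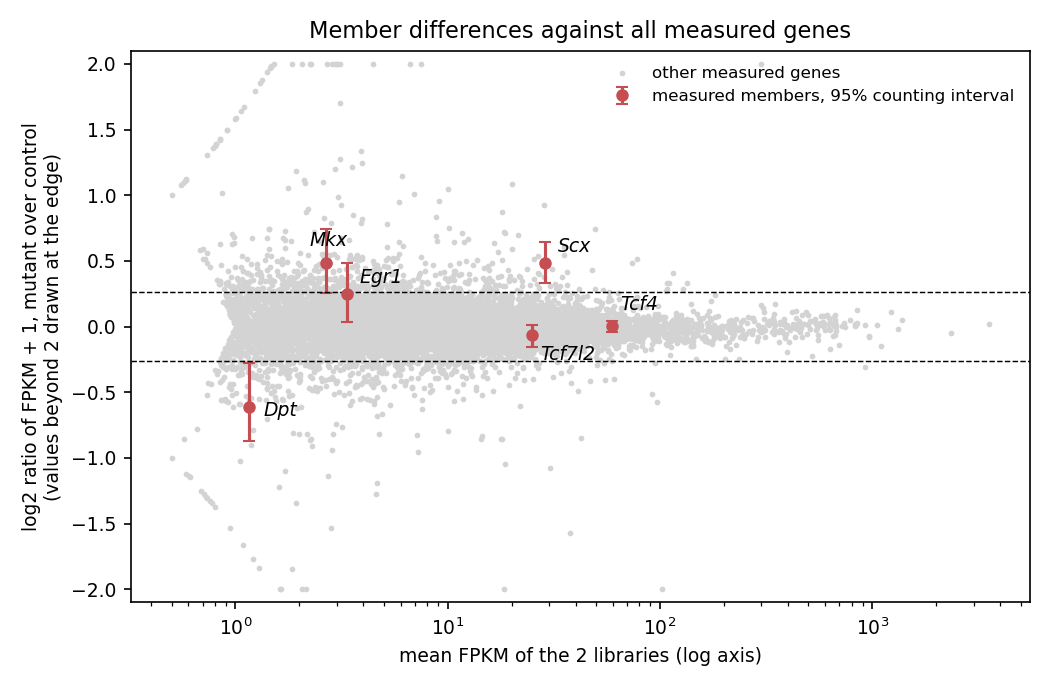
Log2 ratio of FPKM plus 1, mutant over control, against the mean FPKM of both libraries (log axis) for 12383 measured genes (grey, the 21 beyond 2 drawn at the edge) and the 6 measured members (red, bars are 95% counting intervals). Dashed lines mark 1.2-fold. Scx and Mkx lie above the upper line, Dpt lies below the lower one, and Egr1 lies just inside.

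Scx (chromosome 15, 76287868 to 76289898 in mm9, the build of all gene positions given) was present at 23.8 FPKM in the control library (counting interval 21.8 to 25.9, about 510 reads). In the mutant library it had 33.7 FPKM (31.5 to 36.0, about 885 reads). The mutant library was the higher, and the intervals of the levels did not overlap. The ratio was 1.42, with an interval of 1.27 to 1.58. In the control 87.5% of symbols had a lower FPKM than Scx and in the mutant 92.1%. The gene lies within the model of Bop1, a ribosome assembly gene. In the GENCODE M21 annotation (GRCm38) the genes are on opposite strands and share 0 exon bases, the nearest Bop1 exon being 1178 bases away. Bop1 had 19.4 and 18.3 FPKM, a ratio of 0.944 (0.863 to 1.03). Whether strand was used is not given in the sources used here, and without it reads from the intron of Bop1 and from Scx cannot be told apart.

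Scleraxis binds DNA as a dimer with E proteins, and Id proteins hold those partners away from DNA. None of the 6 partner and inhibitor genes listed was past 1.2-fold higher and 1, Id1, was past 1.2-fold lower, with a median log2 ratio of −0.07. The median of all measured genes was 0.0035. The E protein genes Tcf3 and Tcf12 had 88.9 and 97.0 FPKM in the control and 85.3 and 91.5 FPKM in the mutant library. Id1 had 41.4 FPKM in control and 32.7 FPKM in mutant RNA, a ratio of 0.788 (0.708 to 0.876). Id2 had the opposite direction, from 39.8 to 46.8 FPKM, and Id3 went from 67.2 to 60.3 FPKM. Id4 was low in both, at 2.83 and 2.68 FPKM. The members of the Id family therefore did not share a direction.

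Tcf4 (chromosome 18, 69504146 to 69847621), the E protein gene, was the most abundant member. It had 59.2 FPKM in both libraries, with counting intervals of 57.9 to 60.5 in the control and 58.0 to 60.4 in the mutant. The ratio was 1.0 (0.973 to 1.03), from about 8128 and 9977 reads, which makes it the most precisely measured of the 8. Its 2 transcript rows differ in their starts, and the shorter one, NM_001083967, held 55.8% of the FPKM in control and 51.9% in mutant RNA. A difference between rows at least as large, 3.87 percentage points, was found in 60.0% of 1926 genes that had several rows and at least 5 FPKM in both libraries.

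Mkx (chromosome 18, 6934964 to 7004777) had 2.06 FPKM in the control library (1.71 to 2.45, about 124 reads). It had 3.29 FPKM in the mutant library (2.88 to 3.72, about 243 reads). The level was again higher in the mutant library, without overlap of the intervals, and the plain ratio was 1.60 (1.28 to 2.00). Although the plain ratio of Mkx exceeded that of Scx, their log2 ratios of FPKM plus 1 were both 0.49, since adding 1 FPKM shrinks the difference of a low gene. With 5 FPKM added, the log2 ratio of Mkx was 0.23, under 1.2-fold. Mkx encodes an atypical homeobox protein related to the Iroquois family, and the Iroquois genes were higher as well. All 3 measured Iroquois genes were past 1.2-fold higher, with Irx1 at 6.17 and 13.8 FPKM and Irx2 at 3.71 and 8.08 FPKM, while Irx4, Irx5 and Irx6 did not reach 1 FPKM in either library.

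The likeness of other genes to Scx and Mkx could be read only as the closeness of log2 ratios across 2 libraries. Of 100 related genes with at least 5 FPKM, the 3 nearest to both were Eya1 (log2 ratio 0.53), Lect1 (0.40) and Six2 (0.38). Eya1 encodes a coactivator of homeobox factors. Lect1 encodes chondromodulin, a cartilage relative of tenomodulin. Six2 encodes a homeobox factor of head mesenchyme and of limb tendon.

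Cartilage markers were higher in the mutant library, as Scx and Mkx were. All 13 listed were measured, 11 were past 1.2-fold higher and 0 lower, and their summed level was 235 FPKM in control and 322 FPKM in mutant RNA. Among the 11, Acan and Matn1 reached 1 FPKM only in the mutant library, so the filter allowed them to count only as higher. Sox9, which encodes a chondrocyte factor also made in progenitors shared by tendon and cartilage, had 13.6 and 23.1 FPKM. Matn4, Col9a1 and Col9a3, which encode cartilage matrix proteins, had log2 ratios of 0.65, 0.60 and 0.51. The part of cartilage cells in the levels of Scx and Mkx was not tested. Bone markers summed to 9.96 and 13.4 FPKM, with 2 of 4 measured genes past 1.2-fold higher. Skeletal muscle markers summed to 692 and 720 FPKM, with 0 of 11 past 1.2-fold higher and 1 lower.

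Egr1 (chromosome 18, 35020861 to 35024610) had 2.99 FPKM in the control library (2.56 to 3.46, about 173 reads). It had 3.74 FPKM in the mutant library (3.31 to 4.22, about 266 reads). The higher value was that of the mutant, but here the intervals of the levels overlapped. The ratio was 1.25 (1.03 to 1.53), which on the scale of FPKM plus 1 is 1.19-fold, just under the threshold of 1.2. Egr1 passed it on the TPM scale (log2 ratio 0.30) and with 0.1 FPKM added (0.31). Egr1 is an immediate early gene, one that cells switch on within minutes of a growth factor, a stretch or handling. Of 18 measured immediate early genes, 1 was past 1.2-fold higher and 1 lower, with a median log2 ratio of −0.03. Jun was the higher one, at 24.1 and 29.7 FPKM, and Ier2 the lower one, at 21.3 and 17.6 FPKM. Fosl2 and Dusp1 had log2 ratios of −0.25 and 0.21. The immediate early genes as a group thus had no shared direction beside Egr1.

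Egr2 (chromosome 10, 67000617 to 67004936), which encodes a regulator of both tendon and myelinating Schwann cells, was barely detected. It had 0.0751 FPKM in the control (0.0195 to 0.183), from about 4 reads. In the mutant library it had 0.150 FPKM (0.07 to 0.268), from about 10 reads. The ratio of 2.00 had an interval of 0.589 to 8.92, so that no difference was detectable at this depth in either direction. Markers of the Schwann lineage, the other cells that could hold Egr2 RNA, were present. They summed to 95.6 FPKM in control and 83.7 FPKM in mutant RNA, with 1 of 9 measured genes past 1.2-fold higher and 3 lower. Among the lower genes, Cdh19 reached 1 FPKM only in the control. The neurotrophin receptor gene Ngfr had a log2 ratio of −0.22. Their part in the level of Egr2 was not tested.

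The EGR family genes Egr3 and Egr4 were as low as Egr2. Egr3 rested on about 5 and 6 reads and Egr4 on about 1 and 2 reads. The related zinc finger gene Wt1 had 0.207 and 0.270 FPKM. Of the NAB corepressors, which bind EGR proteins and damp their activity, Nab1 had 4.23 and 4.13 FPKM. Nab2, a gene that EGR proteins themselves switch on, had 12.4 and 14.2 FPKM, a ratio of 1.15 (1.03 to 1.28). Neither NAB gene was past 1.2-fold. Egr1 was therefore the only one of the 4 EGR genes that reached 1 FPKM in these libraries.

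Tnmd (chromosome X, 130385547 to 130400116) was also near the limit of detection. It had 0.217 FPKM in the control library (0.0649 to 0.467), from about 5 reads. In the mutant library it had 0.457 FPKM (0.25 to 0.767), from about 14 reads. The mutant value was the higher one, but the intervals overlapped. The ratio of 2.11 had an interval of 0.778 to 8.11 that held 1, and a level of 3 reads in a transcript of 1 kb would be 0.159 and 0.130 FPKM. Tnmd is X-linked, and sex-linked RNA differed between the pools. Xist, transcribed from the silenced X, had 61.1 and 86.1 FPKM, and the Y-linked gene Ddx3y had 11.1 and 8.40 FPKM. The Y-linked gene Kdm5d had a ratio of 0.735 (0.641 to 0.842). Those of Eif2s3y, 0.871 (0.750 to 1.01), and Uty, 0.899 (0.761 to 1.06), had intervals that held 1. The part of the sex of the embryos in the value of Tnmd was not tested.

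Tenomodulin shares its BRICHOS domain with chondromodulin and with the integral membrane proteins of the Itm2 family. Of these 4 genes, 1 was past 1.2-fold higher and 0 lower. That gene, Lect1, had 4.56 FPKM in control RNA (3.81 to 5.46) and 6.32 FPKM in mutant RNA (5.50 to 7.24), a ratio of 1.39 (1.10 to 1.74). Itm2a, an abundant RNA of mesenchyme and muscle, had 401 and 385 FPKM. Itm2b and Itm2c had ratios of 1.12 (1.06 to 1.18) and 1.07 (1.01 to 1.14).

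Dpt (chromosome 1, 166726863 to 166754397) went the other way. It had 1.61 FPKM in the control library (1.2 to 2.14, about 50 reads) and 0.702 FPKM in the mutant library (0.471 to 1.04, about 27 reads). The control was the higher, and the intervals of the levels did not overlap. The ratio was 0.437, with an interval of 0.265 to 0.718. The log2 ratio of Dpt, −0.61 with 1 FPKM added, was −0.21 with 5 FPKM added, which is under 1.2-fold. Because Dpt passed 1 FPKM only in the control, the filter allowed it to count only as lower. Of the 100 related genes the nearest in log2 ratio to Dpt, at −0.61, were Dcn (−0.52), Id1 (−0.33) and Nkd2 (−0.29), so only Dcn lay close to it. Dcn encodes decorin, the collagen-binding proteoglycan that dermatopontin binds, and had 17.2 and 11.7 FPKM, a ratio of 0.680 (0.604 to 0.767).

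The stretch before the start of Dpt and that of Tnmd are shown because Dpt and Scx went in opposite directions and Tnmd is a known target of scleraxis. Both are the 250 bases upstream of the RefSeq start in GRCm38.p6, on the plus strand, with capitals for each E-box, written CANNTG, which reads the same on both strands. The window of Tnmd is chrX:133850758-133851007 and that of Dpt is chr1:164796413-164796662.
Tnmd: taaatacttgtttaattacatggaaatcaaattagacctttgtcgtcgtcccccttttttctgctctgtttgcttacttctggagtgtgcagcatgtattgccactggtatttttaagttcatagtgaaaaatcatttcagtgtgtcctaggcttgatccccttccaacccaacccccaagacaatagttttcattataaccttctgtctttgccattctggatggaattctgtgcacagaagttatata
Dpt: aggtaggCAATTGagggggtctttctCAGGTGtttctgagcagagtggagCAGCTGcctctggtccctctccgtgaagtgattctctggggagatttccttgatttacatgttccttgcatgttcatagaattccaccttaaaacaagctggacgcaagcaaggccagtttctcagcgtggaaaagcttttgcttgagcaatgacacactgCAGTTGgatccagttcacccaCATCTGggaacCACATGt
The window of Dpt holds 6 E-boxes and that of Tnmd holds 0. Of 32851 promoter windows of the same length from RefSeq, 66.2% held at least 1 E-box and 0.274% held 6 or more. The windows of Egr2 and Tcf7l2 were scanned too, and none of them held more than 1 E-box. The share of 0.274% takes no account of the choice among several windows and motifs. Whether scleraxis acts on Dpt was not tested. An E-box in a window is a match of letters and not a site shown to be bound. Neither window held the EGR core (GCGGGGG or GCGTGGG, both strands), which 13% of windows held, or the TCF/LEF motif (CTTTGAA or CTTTGAT, both strands), which 7.48% held. A CArG box, the site of serum response factor, was in neither window and in 1.47% of all. Among the windows not shown, those of every Egr2 start but the first held a CArG box. The first starts of Egr2 and of Tcf7l2 held an EGR core.

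Tcf7l2 (chromosome 19, 55816300 to 56008145), the marker of muscle connective tissue, had 25.5 FPKM in the control library (24.4 to 26.7, about 1957 reads). It had 24.4 FPKM in the mutant library (23.4 to 25.4, about 2276 reads). The intervals overlapped, and the ratio was 0.956 (0.894 to 1.01). Osr1, with a ratio of 0.325 in the same libraries, is itself a gene of muscle connective tissue in the limb. Of 10 measured genes listed for muscle connective tissue, 2 were past 1.2-fold higher and 2 lower, with a median log2 ratio of 0.05. One of the lower genes is Osr1, whose call the genotype fixed, and without it the median was 0.09. The other lower gene, Shox2, reached 1 FPKM only in the control, and the higher gene Tbx5 only in the mutant library. The filter on level thus fixed the direction of both, which leaves Osr2 as the only call free of such limits. Osr2 had 13.6 and 17.3 FPKM, while Pdgfra, a receptor gene of fibroblasts, and Hic1 had log2 ratios of 0.09 and 0.09.

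The sum for Tcf7l2 hid a different division among its 8 transcript rows, which overlap and among which the authors' tool shared the reads by estimation. The row NM_009333 went from 7.19 FPKM (control) to 3.14 FPKM (mutant), or from 28.2% to 12.9% of the gene. The row NM_001142923 went from 5.23 to 3.26 FPKM. In the other direction, NM_001142920 went from 3.92 to 6.38 FPKM, or from 15.4% to 26.2%, and NM_001142922 from 7.52 to 8.53 FPKM. The row NM_001142924, which starts 153511 bases downstream of the others and whose coding part in GENCODE is 299 codons against 435 to 598 for the rest, was listed at 0.000485 FPKM in control and at 1.30 FPKM in mutant RNA. The largest difference in share, 15.3 percentage points, was equalled or exceeded by 16.8% of the 1926 genes with several rows and by 27.5% of the 120 genes with 5 or more rows.

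**Figure D3:**
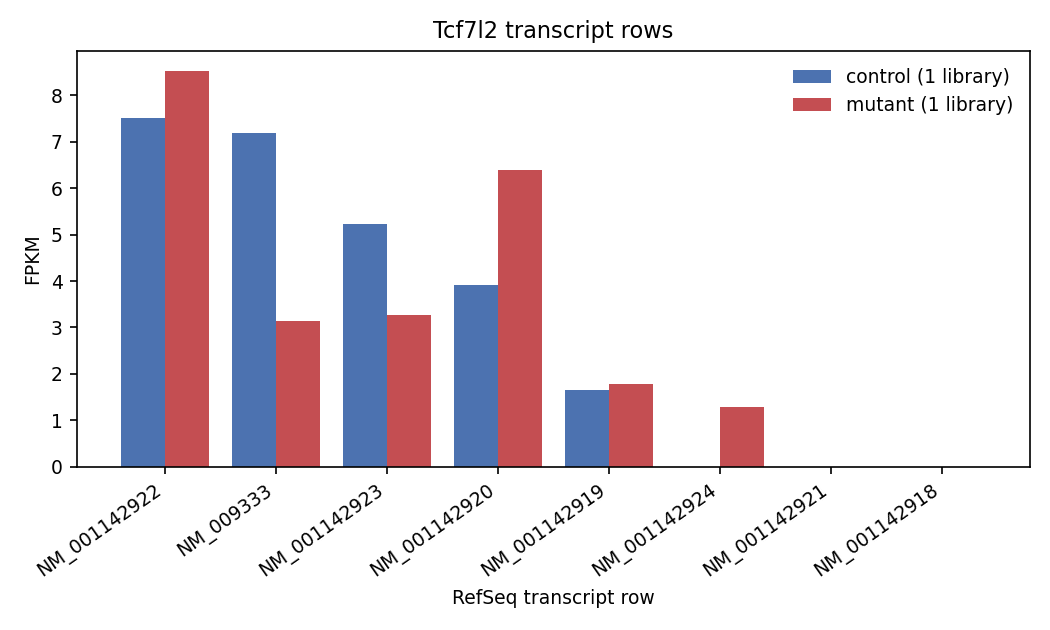
FPKM of the 8 RefSeq transcript rows of Tcf7l2 in the control and the mutant library, 1 library each. NM_009333 and NM_001142923 are lower in the mutant, NM_001142920 is higher, and NM_001142924 is visible only in the mutant, while the sum goes from 25.5 to 24.4. The rows NM_001142921 and NM_001142918 are near 0 in both.

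Among other differences, the rows differ by short exons that are used in some transcripts and skipped in others, most of them in the part that encodes the end of the protein, where the long and short tails of the factor arise. The 4 such exons that are coding in GENCODE M21 are shown, since they are among the parts that tell the transcript rows apart. Capitals mark the exon and lower case the 12 bases of the neighbouring exons in a spliced transcript. The exons lie on the plus strand of GRCm38 at chr19:55755014-55755082 (69 bases), chr19:55923896-55923944 (49 bases), chr19:55924530-55924580 (51 bases) and chr19:55925977-55926049 (73 bases).
Exon of 69 bases: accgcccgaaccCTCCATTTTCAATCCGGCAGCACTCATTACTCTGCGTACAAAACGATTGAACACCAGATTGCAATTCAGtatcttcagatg
Exon of 49 bases: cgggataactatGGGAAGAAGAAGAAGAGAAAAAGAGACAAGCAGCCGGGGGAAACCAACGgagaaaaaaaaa
Exon of 51 bases: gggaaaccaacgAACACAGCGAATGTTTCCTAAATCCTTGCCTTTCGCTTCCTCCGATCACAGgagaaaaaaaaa
Exon of 73 bases: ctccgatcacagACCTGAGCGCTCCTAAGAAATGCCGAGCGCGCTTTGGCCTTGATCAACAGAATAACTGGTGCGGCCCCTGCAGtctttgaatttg
Summed over the rows that hold it, the exon of 69 bases was in 15.4% of the Tcf7l2 FPKM in control and 26.2% in mutant RNA. The exon of 49 bases was in 84.6% and 73.8%, the complement of the former, because the row with the first exon is the one without the second. The exon of 51 bases was in 57.7% and 53.2%, and the exon of 73 bases in 36.0% and 47.6%. These shares rest on the estimated division of reads and carry no error of their own.

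RNAs of the genes that work with Tcf7l2 were mostly close in level too. Of 13 genes of the TCF/LEF family and of beta-catenin cofactors, 0 were past 1.2-fold higher and 1 lower, with a median log2 ratio of 0.04. The lower one was Tcf7, at 3.06 FPKM in control RNA (2.54 to 3.63) and 2.04 FPKM in the mutant library (1.67 to 2.47), a ratio of 0.668 (0.512 to 0.874). Lef1 had 8.66 and 10.1 FPKM, a ratio of 1.17 (1.03 to 1.33). Tcf7l1, which mostly acts as a repressor, had 47.3 and 47.2 FPKM. Among cofactors, Pygo1 had a log2 ratio of 0.25, the corepressor gene Tle1 0.17 and Bcl9l 0.07. Of 12 measured WNT target genes, 1 was past 1.2-fold higher and 2 lower, with a median of −0.05. Lgr5, a receptor of R-spondins, was the higher one at 8.82 and 11.6 FPKM, while Nkd2, an inhibitor of the pathway, had 6.31 and 4.97 FPKM and Tnfrsf19 had a log2 ratio of 0.12.

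Tendon matrix genes, which Scx, Mkx and Egr factors act on in later tendon, had no common direction. Of 25 listed genes 21 were measured, and of these 3 were past 1.2-fold higher, 3 were past 1.2-fold lower and 15 lay between. Thbs4, a thrombospondin of tendon, had 41.5 FPKM in control and 19.2 FPKM in mutant RNA. Aspn and Ogn, which encode small leucine-rich proteoglycans, had 4.30 and 9.65 FPKM and 13.9 and 23.4 FPKM. The median log2 ratio was 0.02, and it was −0.07 over genes of at least 5 FPKM.

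Signals that induce tendon progenitors were mostly level. Of 21 measured genes of TGF-beta, FGF and growth differentiation factor signalling, 2 were past 1.2-fold higher and 0 lower, with a median of 0.03. The 2 were Tgfb3 and Gdf5, and Gdf5 reached 1 FPKM only in the mutant library, so the filter allowed it to count only as higher. Tgfb3, a ligand needed for tendon formation in the mouse, had 19.5 FPKM in control and 25.1 FPKM in mutant RNA, a ratio of 1.28 (1.2 to 1.38). Smad3, which carries the TGF-beta signal, had 27.5 and 32.7 FPKM. Of FGF targets, Spry2 had a log2 ratio of 0.26 and Etv4 of −0.26, so they did not share a direction. Of 8 transcription factors associated with tendon, 3 were past 1.2-fold higher and 0 lower, with a median of 0.15. These were Sox9, Eya1, at 5.93 and 9.02 FPKM, and Six2, at 16.9 and 22.3 FPKM.

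Loose connective tissue genes, the group of Dpt, had 0 of 12 measured members past 1.2-fold higher and 3 lower, with a median log2 ratio of −0.07. Besides Dcn, Lum had 15.2 and 12.6 FPKM, and Twist2 and Cd34 had log2 ratios of −0.17 and −0.11. Markers of other cells also stood lower in the mutant library. Erythroid markers summed to 1315 and 1072 FPKM, with 3 of 5 measured genes past 1.2-fold lower and 0 higher. Neuron markers summed to 45.9 and 38.3 FPKM, with 5 of 8 lower and 1 higher, and epithelium markers to 118 and 103 FPKM, with 1 of 7 lower and 0 higher. Endothelium markers summed to 75.3 and 79.3 FPKM, with 2 of 8 higher and 0 lower, and macrophage markers to 19.9 and 23.6 FPKM, with 2 of 5 higher and 0 lower. No marker of any of these cell types was at 0 in both libraries. The part of these cells in the level of Dpt was not tested.

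**Figure D4:**
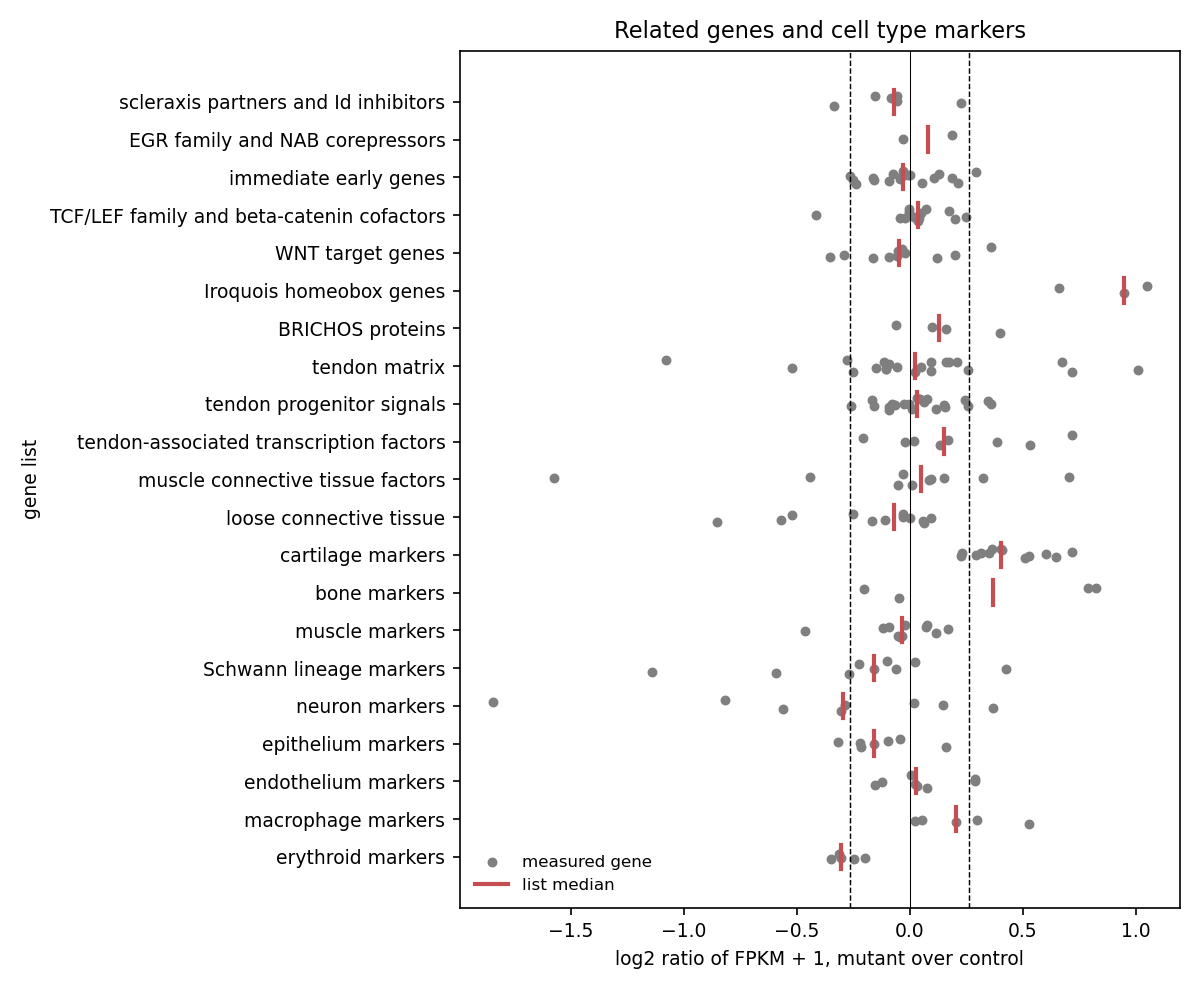
Log2 ratio of FPKM plus 1, mutant over control, of the measured genes of each list (grey points) with the list median (red line), in 1 library per genotype. Dashed lines mark 1.2-fold. Tendon matrix genes lie on both sides of 0 with a median of 0.02, the 3 Iroquois genes and 11 of 13 cartilage markers lie right of the upper line, and TCF/LEF genes cluster around 0.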

How the data were processed

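RNA was extracted from pooled tongues with a Qiagen RNeasy micro kit and cDNA was made with NuGEN Ovation RNA-Seq v2, per the labels' protocols, and the series' design text gives 3 pairs of control and mutant samples as pooled. Alignment tools were TopHat 1.4.1 and Bowtie 0.12.7 on mm9, per the submitters' processing notes. The authors deposited 28107 transcript rows, each with an FPKM and a status, per the file headers. The deposited coverage is an unnormalized signal. For strand setting and quantification version, nothing is given in the sources used here.

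Values were summed per symbol, and the log2 ratio is of mutant over control FPKM plus 1, which understates differences of low genes. Coverage times length clustered at 47.4 bases in lowly covered genes of a single row and at least 1000 nt. This was taken as 1 read and gave approximate reads, exact Poisson intervals of levels and exact conditional (Clopper-Pearson) 95% intervals of ratios. Starts are given from 1, since length equalled end minus start in 3284 rows. GENCODE M21 models, of another build, were matched to transcript rows by RefSeq identifier only, and their lengths differ from those of the files. Promoter sequences are from RefSeq (GRCm38.p6), and entries were matched for 4 of the 8 genes, with those on chromosome 18 not used, also as background. Python 3.11.15, numpy 2.4.6, pandas 2.3.3 and scipy 1.17.1 were used.

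The members and lists were chosen with earlier results of these data known. The text names all members, all genes of the partner, EGR and BRICHOS lists, Tcf7, Lef1 and Tcf7l1, up to 4 genes of at least 5 FPKM with the largest absolute log2 ratio in other lists, and the 3 genes nearest to each member past 1.2-fold. Named outside this rule, after their values were seen, were Bop1, Xist, Ddx3y, Myog, the low Iroquois genes and the genes in the closing section. Col6a3, of the tendon matrix list, was not analysed here. A few genes falling under this rule are not reported here.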

Additional observations from a re-analysis of the deposited data

How the results depend on the processing

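The alternatives were pseudocounts of 0.1 and 5, median centring, quantile normalization, the TPM scale, the top transcript row only, approximate reads, other minimum levels and a fold of 1.5. No called member changed direction under any of them, but most could not have changed it. Scx, Mkx and Dpt have 1 transcript row each, so the top row equals the sum. An added constant cannot turn the sign of a ratio, and approximate reads are the coverage rescaled. Only median centring, quantile normalization and the TPM scale were free to change a direction. The log2 ratio of Dpt was −1.09 with a pseudocount of 0.1, −0.21 with 5 and −0.92 on the TPM scale, and that of Mkx was 0.23 with a pseudocount of 5. Both are low genes, on which an added constant weighs most. With the top transcript row only, Tcf4 had −0.10 and Tcf7l2 had 0.16, both with the opposite sign to their sums, which were under 1.2-fold. The number of members past the fold and higher was 1 with a pseudocount of 5, 1 at 5 FPKM or more and 0 at a fold of 1.5, and the number lower was 0 with a pseudocount of 5 and 0 at 5 FPKM or more, where fewer genes are tested. On the TPM scale and with a pseudocount of 0.1 the number higher was 3, with Egr1. The other 50 member values and 15 counts stayed within their counting interval or within 1.5 times. Of the list medians 192 moved by less than the typical counting error of a single gene of the list, a wide bound for a median. Within it, without a filter on low values, the bone median went from 0.37 to 0.11 and the macrophage median from 0.20 to 0.04. The medians that moved past this bound were the Iroquois median without a filter (0.53) and with a pseudocount of 5 (0.59), the bone median without Dlx5 (−0.05) and the tendon matrix median at 5 FPKM. No paired analysis was possible because each genotype had 1 library. Depth limits Tnmd and Egr2, whose ratios no alternative made precise.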

Other observations

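Some genes outside the naming rule, chosen after their values were seen, stood near the members in role. Fmod, which encodes the tendon proteoglycan fibromodulin, had 2.18 FPKM in control and 4.07 FPKM in mutant RNA, a ratio of 1.87 with a counting interval of 1.49 to 2.33. Gdf5, a joint and tendon growth factor gene, had 0.775 and 1.27 FPKM (ratio 1.64, 1.07 to 2.54). Of transcription factor genes of limb muscle connective tissue, Tbx5 had 0.493 and 1.43 FPKM (ratio 2.90, 1.98 to 4.25) and Shox2 had 1.24 and 0.649 FPKM (ratio 0.525, 0.303 to 0.909).

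The low genes of the loose connective tissue list had no common direction. Mfap5, a microfibril protein gene, had 1.27 and 0.529 FPKM, from about 34 and 17 reads (ratio 0.417, 0.214 to 0.751). Ly6a, which encodes the surface protein Sca-1 and is also made by endothelium, had 1.03 and 0.122 FPKM, from about 16 and 2 reads. Pi16 had 0.203 and 0.106 FPKM. In the other direction, Clec3b had 0.260 and 0.484 FPKM, Dpp4 had 0.170 and 0.211 FPKM and Col14a1 had 0.883 and 1.01 FPKM, and the counting intervals of the ratios of Pi16, Clec3b, Dpp4 and Col14a1 held 1. Shox2, Mfap5 and Ly6a reached 1 FPKM only in the control, and Tbx5, Gdf5 and Col14a1 only in the mutant library, so the filter on level fixes the direction of each.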
